A study of Mus musculus with 21 samples.

Results

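Hypomethylated differentially methylated regions (DMRs) of single windows were examined where the signal in normal intestine was high and was only partly lost in intestinal adenoma. Regions were taken from the merged hypomethylated DMRs where the length was 500 bp, the mean of the 6 normal samples was at least 0.9 rpm (read coverage scaled to 1000000 uniquely aligned reads) and that mean was below 2 times the mean of the 5 adenomas. There were 258 such regions among 8845 merged hypomethylated DMRs, of which 6546 had this length, and among 13980 merged DMRs of both directions. The comparison of normal tissue with adenoma chose the 258 regions, so their loss is described here, and counts of a test of it are read as no support. The other 6288 single-window hypomethylated DMRs serve as the background throughout.

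MeDIP-seq had been carried out on ileum of male C57BL/6J mice of 15 to 19 weeks. Group B was normal tissue of 3 B6 mice with wild type Apc (B1 to B3). Group N was normal tissue of 3 APCMin mice (N4 to N6), which carry 1 mutated Apc allele in every cell. Group Ad comprised 5 adenomas of APCMin mice (Ad4, Ad4-1, Ad5, Ad6, Ad7). Both tissues came from mice 4, 5 and 6, where Ad4 and Ad4-1 were separate tumours of mouse 4. For Ad7 there was no normal tissue of its own mouse. Normal samples and adenomas were pieces of tissue and not sorted cells, so fewer cells with methylation and less methylation in each cell cannot be told apart. No expression values were used, and the tissue labels could not be checked against marker genes. The libraries held 13878615 to 26297510 uniquely aligned reads. At this depth 1 rpm over a window equals the coverage of 23.1 to 43.8 whole fragments of 300 nt. Counting that many fragments gives a relative SD of 15.1% to 20.8%. Fragments that overlap a window only in part were not modelled, so this is an upper estimate of the counting error. This error covers counting only.

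In mammals DNA methylation sits mainly at CpG sites, and most CpG sites outside of CpG islands are methylated in normal tissue. Tumours commonly lose methylation over large parts of the genome and gain it at some islands. MeDIP-seq pulls down fragments with an antibody against 5-methylcytidine, so that its signal grows with the number of methylated CpG sites per fragment. In the APCMin mouse, loss of Apc function sets off Wnt signalling through beta-catenin, which drives the growth of adenomas in the intestine. A value in rpm is therefore a density of methylated sites and no share of methylated molecules. The 258 regions are called regions of high MeDIP signal here, since none of the 27 bisulfite amplicons of the study with a known position overlapped them.

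The 8 stretches shown here carry results given below. They come from the region of highest signal (Zbtb7a), from 3 regions in genes of Wnt signalling or gut transcription (Lgr4, Nkd1, Runx1), from regions with some of the highest and the lowest losses (near Grhl3, near Il10rb, Tomm70a) and from the region of lowest p between N and B (Cd9). Each stretch has 200 bp of the NCBIM37 reference (mm9), plus strand, 5' to 3', and is the part of the region richest in CpG sites. Capitals mark the CpG sites. A region outside genes is called near the protein-coding gene with the nearest start, whatever the distance.
Zbtb7a chr10:80607534-80607733: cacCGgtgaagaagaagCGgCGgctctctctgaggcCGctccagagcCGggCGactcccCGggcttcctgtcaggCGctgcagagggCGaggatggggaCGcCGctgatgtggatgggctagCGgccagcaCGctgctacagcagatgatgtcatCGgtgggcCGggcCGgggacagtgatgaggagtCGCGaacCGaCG
Lgr4 chr2:109852033-109852232: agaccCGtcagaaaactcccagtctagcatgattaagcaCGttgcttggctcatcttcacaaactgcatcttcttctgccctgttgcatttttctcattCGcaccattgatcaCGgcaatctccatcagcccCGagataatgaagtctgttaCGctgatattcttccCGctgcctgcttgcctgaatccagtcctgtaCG
Nkd1 chr8:91103522-91103721: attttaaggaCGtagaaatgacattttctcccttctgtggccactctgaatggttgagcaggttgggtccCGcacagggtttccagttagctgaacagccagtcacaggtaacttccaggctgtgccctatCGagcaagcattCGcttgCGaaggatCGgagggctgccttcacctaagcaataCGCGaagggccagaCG
Runx1 chr16:92624251-92624450: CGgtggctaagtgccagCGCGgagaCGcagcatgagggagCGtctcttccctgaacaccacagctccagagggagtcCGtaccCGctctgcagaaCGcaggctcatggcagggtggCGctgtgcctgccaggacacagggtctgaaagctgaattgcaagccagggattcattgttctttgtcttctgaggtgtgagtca
near Grhl3 chr4:135131251-135131450: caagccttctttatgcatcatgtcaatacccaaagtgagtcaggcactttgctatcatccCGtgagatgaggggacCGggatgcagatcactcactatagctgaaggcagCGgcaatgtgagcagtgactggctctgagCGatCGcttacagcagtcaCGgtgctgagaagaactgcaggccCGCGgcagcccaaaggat
near Il10rb chr16:91443460-91443659: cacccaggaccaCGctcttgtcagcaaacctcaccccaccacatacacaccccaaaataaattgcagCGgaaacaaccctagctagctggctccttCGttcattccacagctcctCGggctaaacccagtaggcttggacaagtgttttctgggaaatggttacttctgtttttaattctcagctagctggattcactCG
Tomm70a chr16:57133762-57133961: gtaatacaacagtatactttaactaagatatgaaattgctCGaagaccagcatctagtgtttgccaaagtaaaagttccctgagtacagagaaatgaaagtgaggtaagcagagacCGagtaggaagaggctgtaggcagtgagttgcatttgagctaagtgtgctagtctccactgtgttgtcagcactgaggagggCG
Cd9 chr6:125441328-125441527: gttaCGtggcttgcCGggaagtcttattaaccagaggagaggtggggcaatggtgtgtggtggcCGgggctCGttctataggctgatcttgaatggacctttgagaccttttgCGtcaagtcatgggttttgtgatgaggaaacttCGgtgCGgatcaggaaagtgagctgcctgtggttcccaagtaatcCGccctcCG

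These stretches held 20 CpG sites in Zbtb7a, 9 each in Nkd1, Runx1 and Cd9, 8 each in Lgr4 and near Grhl3, 5 near Il10rb and 3 in Tomm70a.

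The MeDIP signal over the 258 regions was lower in adenoma, as the choice of the regions required. The mean in normal intestine ran from 0.9 to 2.81 rpm with a median of 1.06 rpm. The mean in adenoma ran from 0.464 to 1.88 rpm with a median of 0.731 rpm. A median of 70.1% of the normal signal was left, with a range from 51.1% to 75.1%. In the other 6288 regions the medians were 0.362 rpm in normal tissue, 0.216 rpm in adenoma and 60.6% left. On the scale of rpm the loss was larger in the regions of high signal, with a median of 0.326 rpm against 0.148 rpm in the others. An adenoma mean above 0.5 rpm was seen in 257 of the 258 regions and in 249 of the 6288 others (3.96%). The level set by the rule contributes to each of these values, which are given as a description.

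**Figure D1:**
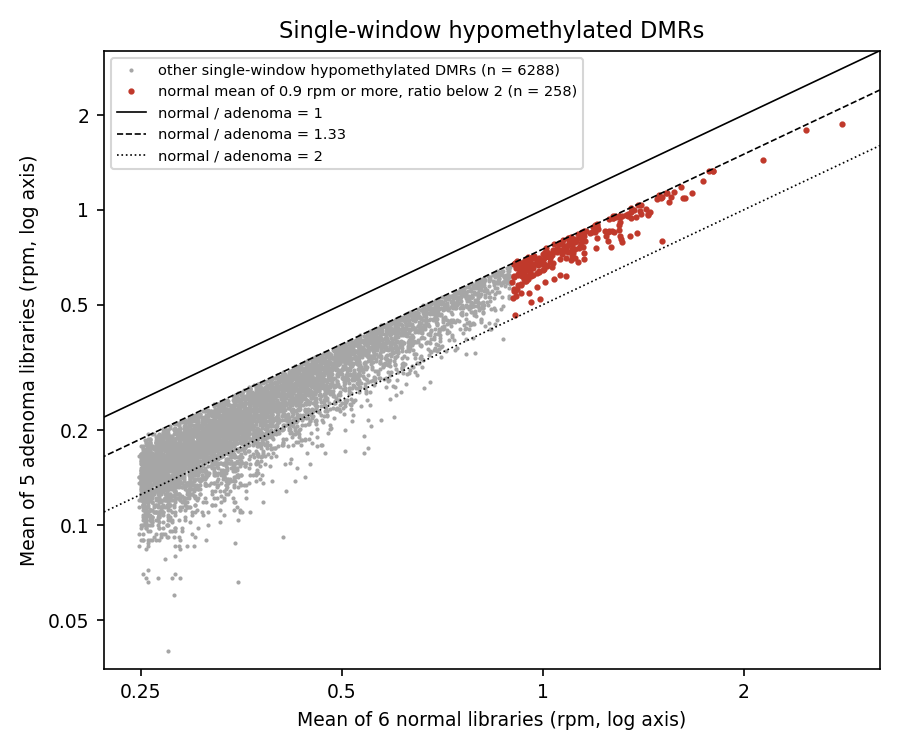
Mean signal of the 5 adenomas (y axis, rpm, log scale) against the mean of the 6 normal samples (x axis, rpm, log scale) for single-window hypomethylated DMRs, with red points for the 258 regions and grey points for the 6288 others. The red points lie between the lines for their lowest ratio of 1.33 and a ratio of 2, and grey points below the line for a ratio of 2 occur at lower normal signal.

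The limits of the rule cut through a continuous range on the side of the signal. The 5 regions just inside had normal means of 0.9 rpm (chr7:80259501-80260000, near Rgma), 0.903 rpm (in Abcc4), 0.905 rpm (in Ccdc109a), 0.905 rpm (in Arhgef19) and 0.907 rpm (near Vps13a). The 5 next below had 0.898, 0.895, 0.895, 0.893 and 0.892 rpm. The limit on the ratio removed no region, since every single-window hypomethylated DMR of at least 0.9 rpm had a ratio of normal to adenoma below 2. The highest ratios among the 258 regions were 1.96 (near Il10rb), 1.90 (near Mpzl1), 1.89 (near Grhl3), 1.89 (in Rtn1) and 1.76 (near Maml3). The lowest were 1.33 (in Tomm70a) and 1.34 (near Siah1a, in Igsf11, in Lrrn2 and near Dtwd2), next to the limit that the authors had set for a DMR. The 5 single-window DMRs next above a ratio of 2 had normal means of only 0.26 to 0.32 rpm. Among the 1024 single-window DMRs with a ratio of 2 or more, the highest normal mean was 0.872 rpm (in Prkch, chr12:74878751-74879250), with 0.39 rpm in adenoma.

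The ratio fell step by step with the signal in normal tissue. Between 0.25 and 0.3 rpm, 1685 single-window DMRs had a median ratio of 1.79, and 27.5% of them reached 2. Between 0.5 and 0.6 rpm the median ratio was 1.53, and 6.09% reached 2. Of the 258 regions, the 96 between 0.9 and 1 rpm had a median ratio of 1.45, the 91 between 1 and 1.2 rpm of 1.42, the 52 between 1.2 and 1.5 rpm of 1.41 and the 19 above of 1.38. The part of the signal left in adenoma thus had medians from 69.0% in the lowest to 72.3% in the highest of these 4 bins. The spread of ratios narrowed as well, and the highest ratio dropped from 6.88 in the bin that starts at 0.25 rpm to 1.66 in the bin from 1.2 to 1.5 rpm, and was 1.89 above that. The Spearman correlation between normal mean and ratio was -0.17 over the 258 regions and -0.42 over all 6546. Both values share the normal libraries, and counting error is larger at low signal. Its part in the trend was not tested.

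**Figure D2:**
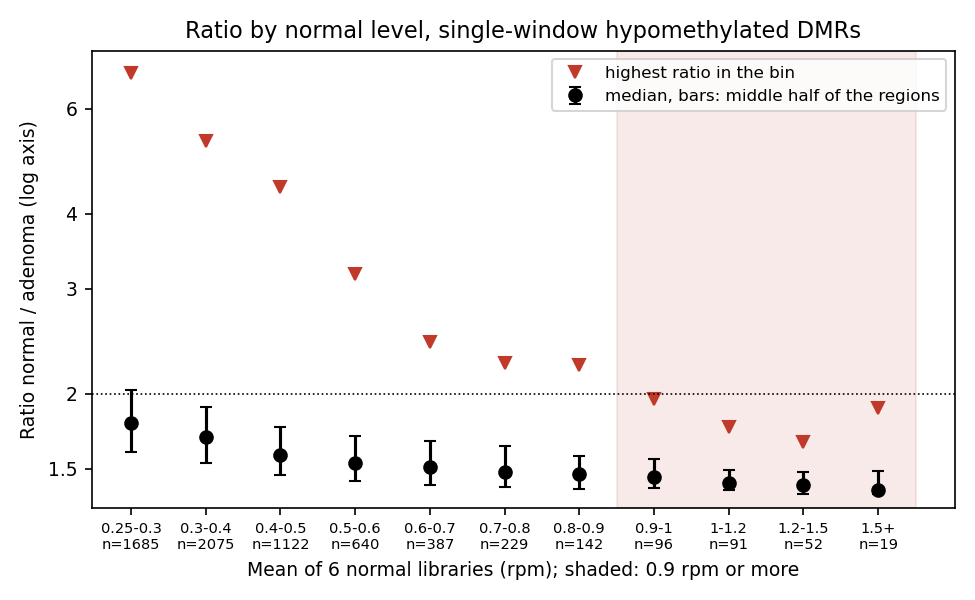
Ratio of normal to adenoma mean (y axis, log scale) in bins of the normal mean (x axis, rpm) for 6546 single-window hypomethylated DMRs, as median with bars for the middle 50% of the regions and as the highest ratio in each bin. Medians step down from 1.79 to 1.38, and no region in the 4 shaded bins of 0.9 rpm or more reaches a ratio of 2.

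Regions of the same signal that lost more were found at greater length. Of the 262 longer hypomethylated DMRs with at least 0.9 rpm in normal tissue, 20 had a ratio of 2 or more. These were 6 of 188 regions of 750 bp (3.19%), 13 of 66 regions of 1000 bp (19.7%), 1 of 6 regions of 1250 bp and 0 of 2 regions of 1500 bp. The highest ratio in that group was 2.97 at Pla2g2a and Pla2g5, genes of secreted phospholipases. The median ratios by length were 1.43 at 500 bp, 1.55 at 750 bp, 1.72 at 1000 bp, 1.64 at 1250 bp and 1.70 at 1500 bp. A longer DMR joins several windows that passed the limits of the authors, so length and loss are linked by the way the table was made.

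The levels in single libraries are given as a description, since all 11 were used to list the regions. The mean signal over the 258 regions was 1.10 rpm in B1, 1.14 rpm in B2 and 1.21 rpm in B3. It was 1.12 rpm in N4, 1.09 rpm in N5 and 1.10 rpm in N6. It was 0.812 rpm in Ad4, 0.717 rpm in Ad4-1, 0.768 rpm in Ad5, 0.830 rpm in Ad6 and 0.775 rpm in Ad7. All 6 normal libraries lay above all 5 adenomas, with 1.13 ± 0.0433 rpm (SD, n = 6) against 0.780 ± 0.0440 rpm (SD, n = 5). The sample titles carry library codes, and libraries with the same first number in the code are called a series here. The labels do not say what this number stands for. In series 4 the normal libraries B1, B2 and N4 stood against Ad4 and Ad4-1, in series 9 N5 and N6 stood against Ad5, and in series 10 B3 stood against Ad6. B3 and Ad6, which share series 10, had the highest mean of their groups. Ad7, the shallowest library, was the only one of series 2.

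**Figure D3:**
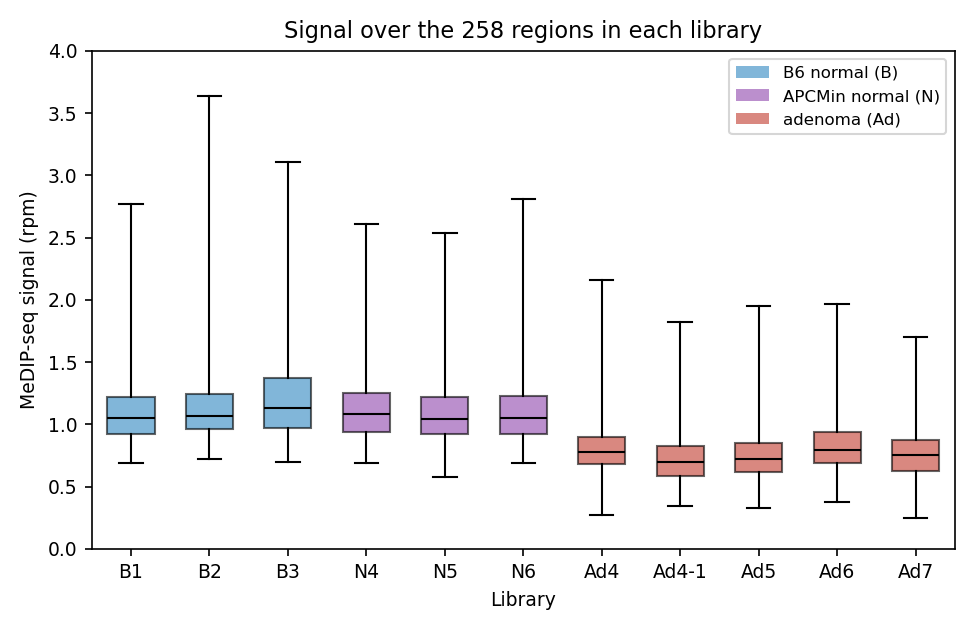
MeDIP signal (y axis, rpm) of the 258 regions in each of the 11 libraries (x axis). Boxes show the median and the middle 50% of the regions and whiskers the lowest and highest region. Library medians are 1.04 to 1.14 rpm in normal tissue and 0.70 to 0.79 rpm in adenoma.

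The part of the signal that each adenoma kept is given as a description. The authors' rank test over these adenomas disfavours regions where a tumour kept its normal signal. The median over the 258 regions of the part left was 72.6% in Ad4, 65.1% in Ad4-1, 69.2% in Ad5, 74.2% in Ad6 and 68.9% in Ad7. In the other 6288 regions the medians were 62.6%, 59.0%, 60.6%, 63.9% and 60.4% in the same order, and Ad6 and Ad4-1 were again highest and lowest. Every adenoma was below the mean of the normal samples in all 258 regions. The choice of regions favoured this outcome, and it was not counted in the others. Ad4-1 was the lowest adenoma in 89 regions, Ad7 in 62, Ad5 in 51, Ad4 in 32 and Ad6 in 24. The pair of adenomas from animal 4 could be compared directly. Ad4-1 was below Ad4 in 177 of 258 regions (68.6%), with 5 ties, and in 3381 of the 6288 others (53.8%). This pair comes from a single mouse, and no test was made.

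Against the normal tissue of the same animal the signal was lower in nearly all regions. Ad4 was below N4 in 255 of 258 regions and held a median of 72.3% of its signal. Ad4-1 was below N4 in 256 regions with a median of 64.0%. Ad5 was below N5 in 252 regions (70.9%) and Ad6 below N6 in 240 regions (75%). These samples were among those used to list and choose the regions, so the direction was set by the choice.

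All 6 normal samples were above all 5 adenomas in 111 of the 258 regions (43.0%). This was the case in 42.8% of all 6546 single-window hypomethylated DMRs, so the share was near the background. Every adenoma kept at least 50% of the normal mean in 186 regions (72.1%). At least 1 adenoma fell below 50% in 72 regions and 2 or more did so in 13. The rule kept the adenoma mean above 50% of the normal mean, so no region could have all 5 below it. The limit shaped these counts, and they were not made in the others. By limma with adjustment by Benjamini and Hochberg all 258 regions were lower in adenoma, and 100.0% of the 13980 DMRs were called in 1 direction or the other. The regions had been listed and chosen on this comparison, and nothing is read from the count. In the 7 libraries of animals 4, 5 and 6 the test called 138 of the 258 regions with the animal as a replicate block. Of all DMRs it called a larger share, 76.6%. Without the block it called 178 of the 258 regions, and again a larger share of all DMRs, 83.2%.

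Spread between samples of a tissue is given beside the counting error as a description, because the authors listed regions by a rank test that favours little spread within a tissue. The counting error treats fragments as whole and is an upper estimate, so the numbers of regions above it are lower estimates. The CV over the 6 normal samples had a median of 13.8% over the 258 regions, where counting of whole fragments gave 16.5%. Over the 5 adenomas the medians were 17.5% and 21.4%. The CV was above the counting error in normal tissue in 79 of the 258 regions and in 866 of the 6288 others. In adenoma this was so in 65 of the 258 regions and in 654 of the others. In the other 6288 regions the medians were 18.6% against 28.2% in normal tissue and 23.7% against 39.4% in adenoma.

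The region of highest signal was in Zbtb7a, a transcriptional repressor (chr10:80607501-80608000). It overlapped coding sequence and intron, lay entirely in a CpG island and held 35 CpG sites, more than any other of the 258 regions. Its signal was 2.77, 3.64 and 3.11 rpm in B1 to B3, 2.52, 1.98 and 2.81 rpm in N4 to N6, and 2.16, 1.71, 1.95, 1.86 and 1.70 rpm in the 5 adenomas. N5 lay below Ad4, so the tissues overlapped. The means were 2.81 ± 0.557 rpm (SD, n = 6) and 1.88 ± 0.190 rpm (SD, n = 5), and 66.9% was left. The next, in an intron of Sfi1, a gene of the centrosome, had 2.48 rpm in normal tissue and 1.80 rpm in adenoma, but its input signal was higher still, as given below.

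Of the 8 regions that followed in signal, 4 lay between genes. The region at chr17:84405751-84406250 near Haao, an enzyme of tryptophan breakdown, had 1.67, 2.53 and 2.41 rpm in B, 2.61, 1.67 and 1.96 rpm in N and 1.28 to 1.56 rpm in the adenomas, without overlap. The region at chr5:148749751-148750250 near Mtus2, a microtubule-associated protein, had 1.80 rpm in normal tissue and 1.33 rpm in adenoma, and Ad6 with 1.76 rpm was above N6 with 1.55 rpm. In Atxn1, the gene of ataxin, an intron region (chr13:46012751-46013250) fell from 1.80 to 1.33 rpm, and all normal samples were above all adenomas. The regions near Ppm1l, a protein phosphatase (chr3:69048001-69048500), and near Pard6b, a protein of cell polarity (chr2:167928751-167929250), had 1.78 and 1.74 rpm in normal tissue and 1.33 and 1.24 rpm in adenoma. Tpm1, a tropomyosin that binds actin, held a region in its 3'UTR (chr9:66871251-66871750) with 1.63 rpm in normal tissue and 1.09 rpm in adenoma. The region in an intron of 4930555I21Rik (chr4:135065751-135066250) had 26 CpG sites, lay in a CpG island and went from 1.62 to 1.09 rpm.

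Among 298 genes in 9 lists of signalling and tissue genes, 4 held one of the 258 regions. These were Lgr4 and Nkd1 of 75 Wnt genes, Smad7 of 38 TGF-beta and BMP genes, and Runx1 of 34 gut transcription factors. No region lay in a listed gene of Notch signalling, growth factor and MAPK signalling, enterocytes, immune cells, stroma or DNA methylation. The 4 regions are 1.55% of the 258, and 122 of the 6546 single-window DMRs (1.86%) lay in listed genes. The lists thus took no larger share than in the background.

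Lgr4 is a receptor for R-spondins, which strengthen Wnt signals in crypt stem cells. Its region (chr2:109851751-109852250) overlapped coding sequence and held 12 CpG sites. The signal was 1.21, 1.21 and 1.55 rpm in B, 1.29, 1.31 and 0.95 rpm in N, and 0.87, 0.55, 0.61, 1.05 and 0.92 rpm in Ad4, Ad4-1, Ad5, Ad6 and Ad7. Ad6 exceeded N6, its normal tissue of the same animal, while the other 4 adenomas were below every normal sample, and 63.8% of the mean was left. Nkd1 is an inhibitor of Wnt signalling that binds Dishevelled. The region in its intron (chr8:91103501-91104000) had 1.22, 1.30 and 1.60 rpm in B, 1.29, 1.49 and 1.38 rpm in N, and 1.15, 0.67, 0.89, 0.85 and 1.20 rpm in the adenomas. There the groups did not overlap, although Ad7 at 1.20 rpm came close to B1 at 1.22 rpm, and Ad4-1 was lowest.

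Smad7 is an inhibitor of TGF-beta signalling. Its region (chr18:75554001-75554500) overlapped coding sequence and 3'UTR and lay in a CpG island with 20 CpG sites. The signal was 1.61, 1.96 and 1.90 rpm in B, 1.5, 1.36 and 1.72 rpm in N, and 1.07, 1.05, 1.40, 1.08 and 1.04 rpm in the adenomas. Ad5 stood apart from the other adenomas and was above N5, its normal tissue of the same animal. Runx1 is a transcription factor of blood cell formation. The region in its intron (chr16:92624251-92624750) had 1.20, 1.67 and 1.74 rpm in B, 1.11, 1.15 and 1.25 rpm in N, and 0.98, 0.75, 0.69, 1.02 and 0.69 rpm in the adenomas. The groups did not overlap, and 61.0% of the signal was left.

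**Figure D4:**
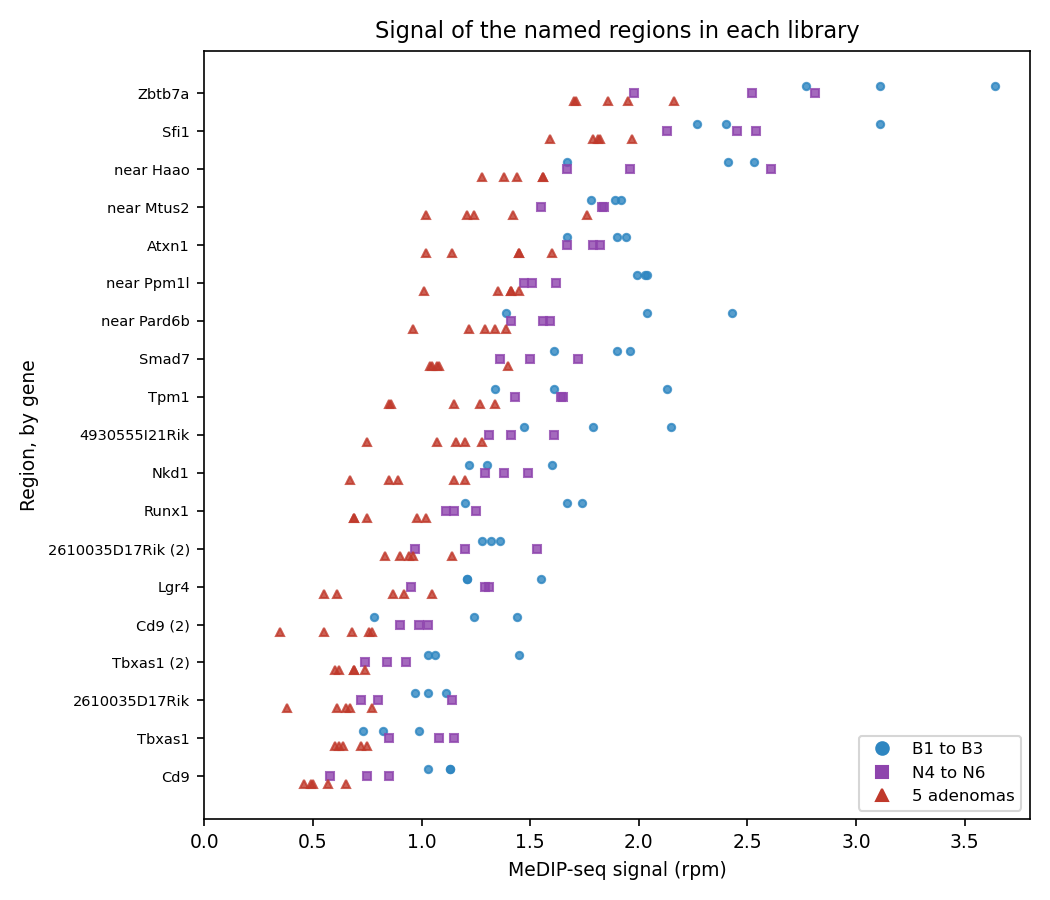
MeDIP signal (x axis, rpm) of single libraries in the regions of highest normal signal, in listed genes and in genes with more than 1 region (y axis, labelled by gene). Circles are B1 to B3, squares N4 to N6 and triangles the 5 adenomas, shifted apart in height for each group. Triangles lie mostly to the left of circles and squares, with overlap at Zbtb7a, Mtus2, Smad7 and Lgr4 among others.

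The largest relative loss was found at chr16:91443251-91443750 near Il10rb, a chain of the interleukin-10 receptor. The signal was 0.78, 0.86 and 1.07 rpm in B, 0.96, 0.76 and 1.02 rpm in N, and 0.27, 0.41, 0.49, 0.58 and 0.57 rpm in the adenomas. All adenomas were below all normal samples, and Ad4 was lowest. The region near Grhl3, an epithelial transcription factor (chr4:135131251-135131750), fell from 1.51 ± 0.423 rpm (SD, n = 6) to 0.798 ± 0.214 rpm (SD, n = 5). Here B3 with 2.30 rpm was well above the other normal samples at 1.13 to 1.60 rpm, and Ad7 at 1.16 rpm was above B1. At the other end stood Tomm70a, a receptor for protein import into mitochondria, with an intron region (chr16:57133501-57134000) of 4 CpG sites. It had 0.917 rpm in normal tissue and 0.688 rpm in adenoma, and Ad5 with 0.83 rpm was above N4 with 0.81 rpm.

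Of 166 genes that held any of the regions, 3 held 2 of them. In Cd9, a tetraspanin of the cell surface, the regions at chr6:125417001-125417500 and chr6:125441251-125441750 had ratios of 1.71 and 1.71. In Tbxas1, thromboxane synthase, the regions at chr6:38876501-38877000 and chr6:38995501-38996000 had ratios of 1.41 and 1.51. In 2610035D17Rik the ratios were 1.56 (chr11:112965001-112965500) and 1.34 (chr11:113029001-113029500). The nearest protein-coding start to both was that of the transcription factor Sox9, 321712 and 385712 bp away. Only 1 pair of the regions lay within 20000 bp of each other, at chr11:96273501-96274000 and chr11:96277501-96278000. Cdh4, a cadherin, was the only gene named in the study that held one of the regions (chr2:179439751-179440250), with 1.01 rpm in normal tissue and 0.714 rpm in adenoma. This region lay in an intron and overlapped no promoter. The study named Cdh4 for a gain of methylation at its promoter, so the element and the direction differ.

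The 258 regions were richer in CpG sites than the background. They held 2 to 35 CpG sites per window with a median of 12, against 7 in the other 6288 regions and 3 in windows of 500 bp of the genome. GC content had a median of 49.0% against 46.2%, and the ratio of observed to expected CpG sites was 0.388 against 0.285. The mean CpG count of the adjoining windows on both sides had a median of 7, against 5.5, so the sites were denser within the window than beside it. CpG count and normal signal had a Spearman correlation of 0.31 over the 258 regions, and CpG count and ratio one of 0.09. MeDIP signal depends on CpG density, and the choice by signal favours windows with many sites.

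**Figure D5:**
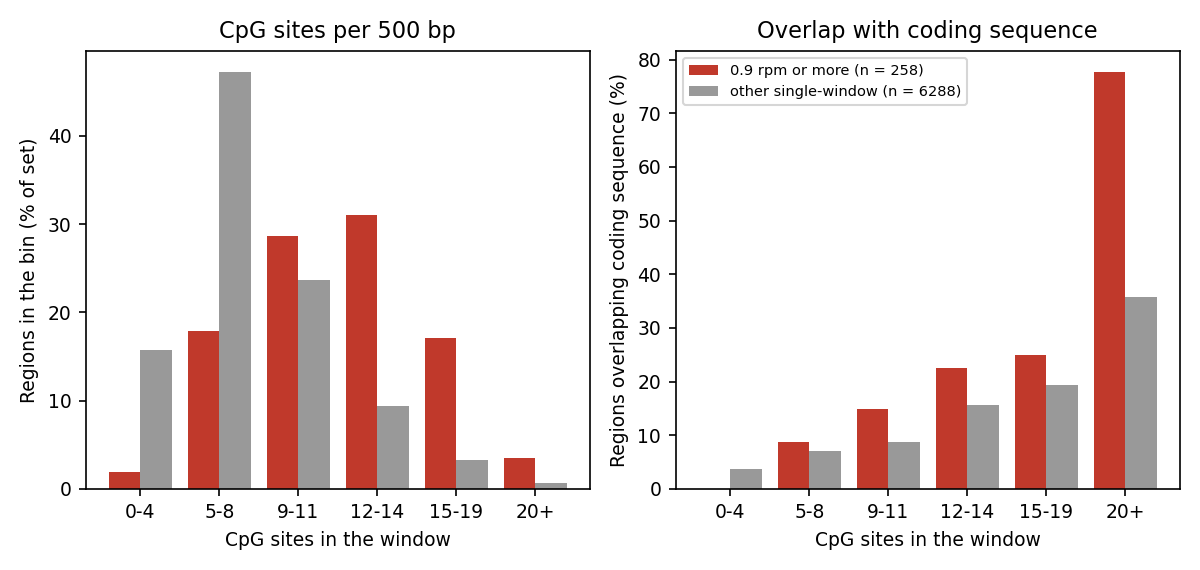
Share of regions by number of CpG sites in the window (left, % of the set) and share of each bin that overlaps coding sequence (right, %), in red for the 258 regions and in grey for the 6288 others. The largest red bin has 12 to 14 CpG sites (31.01%) and the largest grey bin 5 to 8 (47.3%). In the 5 bins from 5 CpG sites on, the coding share is higher in red than in grey.

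Coding sequence was overlapped by 51 of the 258 regions (19.8%) and by 8.32% of the others. At 9 to 14 CpG sites, which 154 of the regions and 2078 of the others had, the shares were 18.8% and 10.7%. In the 371 single-window hypomethylated DMRs of 0.7 to 0.9 rpm the share was 12.7%. In the 233 single-window hypermethylated DMRs of at least 0.9 rpm in adenoma it was 44.6%. Of these, 100 had 9 to 14 CpG sites, with a share of 36%. A coding share above that of the others was thus not particular to the 258 regions. In the 242 longer DMRs of at least 0.9 rpm with a ratio below 2 the share was 21.1%. These are 750 to 1500 bp long, and greater length by itself makes an overlap more likely. Among the 9 regions with 20 or more CpG sites, named here after their values had been seen, 7 were coding. These were Zbtb7a, Smad7, Hspg2 (perlecan of the basement membrane), Mink1 (a protein kinase), Mgat5b and St3gal2 (glycosyltransferases) and Pkd1l3 (a polycystin-like channel). The others lay in introns of 4930555I21Rik and Ttc7.

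CpG islands of at least 300 bp overlapped 63 regions (24.4%), against 7.38% of the others. At 9 to 14 CpG sites the shares were 16.2% and 10.9%. With stricter limits for islands, of 500 bp, only 2 regions (0.775%) overlapped one, against 0.906% of the others. The overlap was thus almost entirely with islands that met the looser limits alone. Single-window hypermethylated DMRs of at least 0.9 rpm in adenoma differed from this, since 50.2% of 233 overlapped an island and 23.6% a strict one. Their median CpG count was 14. At 9 to 14 CpG sites, 24.0% of 100 of them overlapped an island and 2.0% a strict one, against 16.2% and 0% of the 154 regions, so the difference was smaller at a like CpG count. In the 242 longer hypomethylated DMRs of at least 0.9 rpm with a ratio below 2, which had a median of 18 CpG sites, 35.1% overlapped an island. Their greater length also makes an overlap more likely.

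Promoters were not favoured. The promoter of any transcript was overlapped by 15 regions (5.81%), against 5.63% of the others and 21.5% of the hypermethylated DMRs of similar signal. Among windows with 9 to 14 CpG sites the shares were 3.90% of the regions and 7.12% of the others, so the regions had the smaller share there. Where only protein-coding genes and their 5' ends were counted, 2 regions (0.775%) overlapped, against 1.69% of the others. At Pkd1l3 (chr8:112138251-112138750) the signal was 0.88, 0.99 and 1.07 rpm in B, 1.18, 1.34 and 0.89 rpm in N and 0.74 to 0.84 rpm in the adenomas, without overlap. At A430105I19Rik (chr2:118589251-118589750) it was 1.00, 0.75 and 1.09 rpm in B, 1.04, 0.87 and 1.31 rpm in N and 0.35 to 0.81 rpm in the adenomas, and Ad6 with 0.81 rpm exceeded B2. Gene bodies held 156 regions (60.5%, against 56.5%), and 99 of all 258 (38.4%) lay in introns without touching an exon. The distance to the nearest protein-coding start had a median of 36805.5 bp, against 36072.5 bp in the others, and exceeded 100000 bp in 42 regions (16.3%, against 24.1%).

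Another hypomethylated DMR lay within 5000 bp of 42 regions (16.3%, against 10.96% of the others), and a hypermethylated one within 5000 bp of 14 (5.43%, against 3.58%). At 9 to 14 CpG sites these shares were 14.3% and 13.4% for hypomethylated and 4.55% and 4.52% for hypermethylated neighbours. Chromosome 11 held 27 regions (10.5%, against 6.34% of all single-window hypomethylated DMRs) and chromosome 5 held 24 (9.30%, against 6.83%). Chromosome X held 1.

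Short sequence motifs were counted on both strands. The CRE, bound by CREB proteins (TGACGTCA), was found in 9 regions (3.49%) and in 47 of the others (0.747%). The ETS motif (CCGGAAG) was found in 19 regions (7.36%, against 3.2%), and the NRF1 motif in 3 (1.16%, against 0.286%). These motifs hold a CpG site, as do the E-box (CACGTG), found in 13.2% against 11.5%, and CCGG, which is part of the ETS motif, in 55.8% against 37.9%. At 9 to 14 CpG sites the shares were 3.25% against 1.06% for CRE, 7.79% against 4.14% for ETS and 1.30% against 0.433% for NRF1, but 13.6% against 15.0% for the E-box and 55.2% against 53.4% for CCGG. In the 242 longer DMRs of at least 0.9 rpm with a ratio below 2 the CRE was in 3.72% and the ETS motif in 8.68%. Longer sequence makes a match more likely. In the 371 single-window hypomethylated DMRs of 0.7 to 0.9 rpm, just below the limit, the CRE was in only 1 (0.270%). The ETS motif was in 5.66% of these 371 and the NRF1 motif in 1.35%. Among motifs without a CpG site, AP-1 (TGANTCA) was in 26.7% against 23.3%, TCF of the Wnt pathway (CTTTGAT) in 13.2% against 9.73% and CDX (TTTATNG) in 18.2% against 23.0%. The letters AGATAA, which factors of the Gata family bind, were in 24.4% against 26.7%. HNF4 (CAAAGTCCA) was in 0 regions against 0.954%. Of the 9 CRE matches, 8 are shown with 16 bases on either side, from NCBIM37, plus strand, 5' to 3', with the motif in capitals.
Atxn1 chr13:46012870-46012909: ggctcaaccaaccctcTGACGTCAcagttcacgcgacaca
near Pard6b chr2:167929022-167929061: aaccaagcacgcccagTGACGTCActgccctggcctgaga
near Sept12 chr16:5004366-5004405: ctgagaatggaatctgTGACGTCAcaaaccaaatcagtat
near Pik3cd chr4:149081840-149081879: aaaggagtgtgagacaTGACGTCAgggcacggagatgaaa
near Adamts20 chr15:93876007-93876046: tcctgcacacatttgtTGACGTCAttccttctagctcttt
Vgll4 chr6:114844045-114844084: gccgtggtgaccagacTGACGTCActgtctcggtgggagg
Tmem117 chr15:94880246-94880285: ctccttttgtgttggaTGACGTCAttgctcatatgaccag
near Incenp chr19:10013313-10013352: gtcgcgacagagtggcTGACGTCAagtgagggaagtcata

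The remaining match lay in Trim36, a ubiquitin ligase. Atxn1 and the region near Pard6b, both among the 10 regions of highest signal, were among the 9 regions. The region near Adamts20, a secreted metalloprotease, had the largest relative loss of the 9, from 0.953 to 0.546 rpm. On the scale of rpm more was lost in Atxn1 (1.80 to 1.33 rpm) and near Pard6b (1.74 to 1.24 rpm). A match in the letters is no evidence of binding.

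Whether the mutated Apc allele alone goes with a difference was asked by comparing N with B, whose difference was no criterion in the choice of regions. The list did require B and N together to lie above adenoma, which disfavours regions where N had moved towards adenoma, and the comparison holds for regions chosen in this way. No region was called by limma, with adjustment by Benjamini and Hochberg over all 13980 DMRs, of which 0% were called. The lowest adjusted p of the 258 regions was 0.999. At an unadjusted p under 0.05 there were 7 regions, 6 lower and 1 higher in N, where 4.15% of all DMRs passed. At an unadjusted p under 0.01 there was 1, where 0.808% of all DMRs passed. The log2 difference of N to B had a median of -0.04 over the regions and of -0.02 over all DMRs, and 255 of 258 were within 0.5 with a median SE of 0.20. N was lower in 152 regions (58.9%) and in 54.5% of all DMRs. All 3 B samples were above all 3 N samples in 19 regions (7.36%, against 4.82% of all DMRs). The reverse held in 7 regions (2.71%, against 3.24% of all DMRs).

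Per library, the mean over the 258 regions was 1.11 ± 0.0160 rpm (SD, n = 3) in N and 1.15 ± 0.0545 rpm (SD, n = 3) in B. The difference of -0.0441 rpm had p = 0.3 in a two-sided exact permutation test, where the smallest p that 3 against 3 samples allow is 0.1. In series 4, the only series with both groups, N4 with 1.12 rpm lay between B1 with 1.10 and B2 with 1.14 rpm. With the library series in the limma fit the median log2 difference over the regions was -0.00173.

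The lowest p between N and B was at the Cd9 region chr6:125441251-125441750. The signal was 1.03, 1.13 and 1.13 rpm in B, 0.85, 0.58 and 0.75 rpm in N, and 0.65, 0.49, 0.50, 0.46 and 0.57 rpm in the adenomas. All N samples were below all B samples, and N5 was below Ad4, so N stood between B and adenoma. The log2 difference of N to B was -0.58 with an SE of 0.20 and by limma an adjusted p of 0.999, so it did not pass. The other Cd9 region had 0.78, 1.24 and 1.44 rpm in B and 0.99, 0.90 and 1.03 rpm in N, and these overlapped. The region near Cxcr7, a chemokine receptor (chr1:92174501-92175000), had 1.11, 1.55 and 1.58 rpm in B and 0.93, 0.92 and 0.84 rpm in N. In Agap1, an Arf GTPase-activating protein (chr1:91438001-91438500), the order was opposite, with 0.95, 0.80 and 0.73 rpm in B and 1.13, 1.26 and 1.05 rpm in N. Neither passed after adjustment by limma.

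Input DNA without immunoprecipitation had been sequenced for B3, N4 and Ad7, with 3228908 to 5931425 uniquely aligned reads. Over the 258 regions the median input was 0.15, 0.12 and 0.12 rpm in these libraries, and 0.15, 0.14 and 0.13 rpm in the others. In 2 regions the input of all 3 libraries exceeded the mean MeDIP signal of normal tissue and of adenoma. In 1 further region each the input of B3 and the input of Ad7 exceeded the adenoma mean alone. At chrX:121308251-121308750 near Vmn2r121, a vomeronasal receptor, the MeDIP signal was 1.05 rpm in normal tissue and 0.754 rpm in adenoma with 2 CpG sites, the fewest of all the regions. At chr11:3045501-3046000 in Sfi1 it was 2.48 and 1.80 rpm with 7 CpG sites. Input in B3, N4 and Ad7 reached 5.26, 6.76 and 3.36 rpm at the first and 4.03, 5.07 and 3.78 rpm at the second. Input of Ad7 was the lowest of the 3 in both regions, in the same direction as their MeDIP signal, and the part of input in these differences was not tested. In the other 256 regions no input value was above 0.90 rpm. Without these 2 regions, which were set aside after their values had been seen, the median ratio remained at 1.43.

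Most of the regions held no words of read length that are repeated in the reference genome. In 211 regions (81.8%, against 74.6% of the others) all words of 36 bases, the length of the reads, occurred once in the genome. In 243 regions at least 90% did, and the lowest share was 66.0%. The words were compared by their exact letters, while the authors' alignment allowed mismatches, so unique placement of the reads was not tested. In the Sfi1 region of high input 97.2% of the words occurred once.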

How the data were processed

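MeDIP-seq of 11 ileum samples and input DNA of 3 of them were used. Single-end reads of 36 nt had been aligned to mm9 with Bowtie (0.12.5 in the submitters' processing notes) by the authors, who kept unique hits, collapsed reads with a common start and extended reads to 300 nt with MEDIPS. The deposited rpm values are coverage, averaged by the authors over 500 bp windows at steps of 250 bp and scaled to the uniquely aligned reads of the library, with 2 decimals. Only windows that had passed the authors' limits on a Wilcoxon p, a ratio and a minimum signal are listed, and overlapping windows were merged. Deposited columns of ratios, p-values and variances are the authors' own comparison and were not used. Library depths come from the sequencing statistics of the study. Expression was not analysed here.

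Groups were taken from the sample labels. N and B were compared with limma (3.58.1, R 4.3.3) on log2(rpm + 0.05) over all 13980 merged DMRs, with 3 groups in the fit and adjustment by Benjamini and Hochberg, called at an adjusted p under 0.05. The procedure was tested on simulated data. The labels name separate animals except for Ad4 and Ad4-1, and p-values measure only the spread between these samples. Same-numbered N and Ad samples are of the same animal. Pearson's r of their deviations from the group means was -0.05 to 0.03 for the 4 pairs of an animal and -0.03 to 0.07 for the 11 other pairs. Genes came from gencode vM1 on NCBIM37, a promoter began 1000 bp before a start and ended 500 bp after it, and CpG islands had at least 300 bp, a GC content of 50% and 0.6 of the expected CpG sites (strict limits of 500 bp, 55% and 0.65). Regions were named by highest normal signal (10), promoters at protein-coding 5' ends, the ratios at both ends (5 each), genes of the lists or named in the study, and genes with more than 1 region. The regions and the gene lists were chosen with earlier results of these data known. Python 3.11.15 with numpy 2.4.6, pandas 2.3.3 and scipy 1.17.1 was used.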

Additional observations from a re-analysis of the deposited data

Results flagged for a closer look

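Single samples were examined in 68 groups of named regions, and 3 held a sample far from the rest of its group, where chance gives about 1 in 20. Near Ppm1l (chr3:69048001-69048500) Ad7 was low with 1.01 rpm, while the other adenomas had 1.35 to 1.45 rpm. In Smad7 (chr18:75554001-75554500) Ad5 was high with 1.40 rpm, while the other adenomas had 1.04 to 1.08 rpm. In Cdh4 (chr2:179439751-179440250) Ad4-1 was high with 0.96 rpm, while the other adenomas had 0.61 to 0.69 rpm.

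In 2 regions input DNA of all 3 libraries gave signal above the mean MeDIP signal of both tissues. At chrX:121308251-121308750 the libraries B3, N4 and Ad7 had 5.26, 6.76 and 3.36 rpm. At chr11:3045501-3046000 in Sfi1 they had 4.03, 5.07 and 3.78 rpm.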

How the results depend on the processing

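Of 61 alternatives, 55 gave counts within 1.5 times or values within the spread or interval of those reported, and 6 moved further. The number of regions was 399 with a limit of 0.8 rpm, 162 with 1 rpm and 500 with any length, while a lower limit on the ratio gave 253 and a higher one the same number as reported. With the animal as a replicate block 138 regions were called lower in adenoma, against 178 in the same 7 libraries without the block, and the cause was not tested. The promoter share was 2.33% with the 5' end of the gene only, and the share in a CpG island was 0.775% with strict limits. Leaving out 1 library at a time gave 252 to 258 regions called in adenoma, median ratios of 1.41 to 1.45 and 0 regions called between N and B by limma. At an unadjusted p under 0.05 the comparison of N with B gave 24 regions with a pseudocount of 0.5 rpm, 20 of them lower in N, and 5 with the library series in the fit, 4 of them higher in N. The median ratio was 1.46 in series 4 alone, 1.40 with medians in place of means and 1.40 with a pseudocount of 0.05 rpm. Depth limits single regions, since 1 rpm equals the coverage of 23.1 to 43.8 whole fragments per library. The tables hold only DMRs that had passed the authors' limits, and the rest of the genome was not analysed here.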
